A study of Mus musculus with 20 samples.

Results

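The genes described here encode the lipoxygenases of mouse ear skin: Alox12b, Aloxe3, Alox12, Alox12e, Alox8, Alox15 and Alox5. They were chosen by name, not by their measured values, though with earlier results of these data known. Of the 7 genes, 6 had a row among the 16669 genes of the table. Alox15 was not analysed here. The 6 genes all passed the filter on low values, a log2 CPM (CPM being read counts scaled to library size) of 0 or more in 5 or more libraries, which left 16461 genes for testing. The libraries came from total RNA of mouse ear pinnae in 4 groups of 5. The right ear received 10 µl intradermally of PBS alone (the control), or of PBS carrying 1 cytokine at 0.1 µg/µl, which was IL-31, IL-13 or IL-4. All groups therefore share the injection and the PBS. The sources used here do not state strain, age, sex or the time from injection to harvest. Nothing in the labels says whether each library came from its own animal, and p-values thus reflect the spread among libraries, which may be technical. The pinna is a mixed tissue with skin, cartilage and muscle. In such bulk RNA, fewer cells of a type and less RNA per cell cannot be told apart.

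Lipoxygenases insert oxygen into polyunsaturated fatty acids and yield hydroperoxides. In the outer epidermis the products of Alox12b and Aloxe3 act in sequence on the linoleate carried by acylceramides, the long-chain lipids of the skin barrier. That oxidation precedes the attachment of ceramide to the surface proteins of the corneocyte, which forms the corneocyte lipid envelope. Loss of either enzyme causes congenital ichthyosis in humans. Alox12 encodes the platelet-type arachidonate lipoxygenase, which keratinocytes also make, and Alox12e encodes the epidermis-type enzyme of the mouse. Alox8 encodes a mouse lipoxygenase known from phorbol ester-treated skin. Alox5 encodes the enzyme of leucocytes that, with its partner protein FLAP (the product of Alox5ap), starts leukotriene synthesis.

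The members lie mostly together in the genome. On mouse chromosome 11 (GRCm38, GENCODE M21), Aloxe3 (ENSMUSG00000020892) spans 69125896 to 69149115 and Alox12b (ENSMUSG00000032807) spans 69156989 to 69169792, both on the plus strand. Alox8 (ENSMUSG00000020891) follows on the minus strand from 69183932 to 69197843, which closes a cluster of 71.9 kb. A second cluster of 111 kb starts 1044 kb further on and lies wholly on the minus strand. It holds Alox12 (ENSMUSG00000000320) at 70241457 to 70255353, Alox12e (ENSMUSG00000018907) at 70315610 to 70322628 and Alox15 (ENSMUSG00000018924) at 70344152 to 70352031. Alox5 (ENSMUSG00000025701) stands apart on chromosome 6, at 116410077 to 116461178 on the minus strand. All 7 are annotated as protein-coding.

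Promoter sequences from RefSeq (build GRCm38.p6) matched Alox12b, Alox12, Alox12e, Alox8 and Alox5. Shown here are the stretches before the annotated start of Alox12b, Alox12 and Alox12e, which rose in every cytokine group, and of Alox5, which passed no test. Each reads 5′ to 3′ on the gene's own strand, and capitals mark matches to any of the motifs searched.
Alox12b, chr11:69156822-69156988, plus strand: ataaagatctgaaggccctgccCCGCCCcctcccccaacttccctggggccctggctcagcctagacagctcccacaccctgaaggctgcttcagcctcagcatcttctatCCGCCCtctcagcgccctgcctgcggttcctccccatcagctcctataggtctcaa
Alox12, chr11:70255371-70255620, minus strand: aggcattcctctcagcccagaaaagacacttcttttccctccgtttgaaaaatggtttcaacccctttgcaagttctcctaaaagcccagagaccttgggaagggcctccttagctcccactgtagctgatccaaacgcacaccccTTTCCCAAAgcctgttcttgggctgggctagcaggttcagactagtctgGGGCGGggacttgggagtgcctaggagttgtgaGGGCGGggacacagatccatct
Alox12e, chr11:70322629-70322780, minus strand: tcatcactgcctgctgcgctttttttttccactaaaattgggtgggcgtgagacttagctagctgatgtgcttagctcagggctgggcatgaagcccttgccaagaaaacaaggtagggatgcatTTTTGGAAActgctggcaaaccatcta
Alox5, chr6:116461179-116461428, minus strand: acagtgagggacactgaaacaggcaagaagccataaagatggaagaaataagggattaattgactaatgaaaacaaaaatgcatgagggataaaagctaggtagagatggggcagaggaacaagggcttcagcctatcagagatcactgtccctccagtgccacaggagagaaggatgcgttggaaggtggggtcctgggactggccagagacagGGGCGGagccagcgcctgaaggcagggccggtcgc

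The search covered 250 bases before the RefSeq start, on both strands, and the printed stretches of Alox12b and Alox12e end earlier, at the GENCODE gene start, which leaves out 83 and 98 bases. The GC box GGGCGG matched 3 times in Alox12b, 2 times in Alox12 and once each in Alox12e, Alox8 and Alox5. It was present in 32.7% of the 32851 RefSeq promoter windows of that length. The C/EBP pattern TTNNGNAA matched 2 times, at overlapping positions, in Alox12 and in Alox12e, against 36.8% of all windows. None of the 5 windows held TATAAA (12.4% of all windows), the AP-1 pattern TGANTCA (6.75%), the STAT3 pattern TTCNNNGAA (7.02%) or the STAT6 pattern, which has 4 rather than 3 free bases between the same half-sites (5.85%). A match says only that these letters are present, and a missing match only that they are not in this window. Alox12b, Alox12 and Alox12e shared no motif among those searched beyond the GC box, which the promoters of Alox8 and Alox5 also held.

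Per kilobase of annotated exon, Alox12e had the highest mean level over the 20 libraries, at 5.80 log2 CPM per kb. Alox12b followed at 4.95 and Aloxe3 at 4.40, on the same scale. Alox12 (2.98) and Alox5 (2.18) were lower, and Alox8 (-1.37) was near the floor. Neighbours in this order differed by less than the larger of their SDs over libraries from Alox12e down to Aloxe3 (SD 0.71, 1.09 and 0.44, n = 20) and from Alox12 to Alox5 (SD 0.88 and 0.31). These SDs do not use the fact that the genes share libraries. Library by library, Alox12e exceeded Aloxe3 in every one and Alox12b in all but IL-13 library 3. Alox12b exceeded Aloxe3, and Alox12 exceeded Alox5, in all but PBS libraries 1, 2 and 3. Exon lengths are unions over annotated transcripts, 6.397 kb for Aloxe3 against 2.431 kb for Alox12b, so the order depends on which transcripts the skin uses. The reads behind a value ran from 69.0 to 4567 for 5 of the genes and from 4.00 to 246 for Alox8.

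Some facts about the libraries bear on every comparison with PBS. Effective depth ran from 6.11 M reads (IL-4 library 5) to 23.7 M (IL-31 library 4) around a median of 13.0 M, so 3 reads equal 0.126 to 0.491 CPM. PBS libraries 1, 2 and 3 stood apart in markers of the outer (suprabasal) epidermis, a list of 11 genes including Krt10, Lor and Flg. Their score, the mean over the list of log2 CPM centred per gene, was -1.46, -2.07 and -2.36, while the other 17 libraries lay between -0.47 and 1.23. The summed level of that list was 7718 to 45659 CPM in PBS, 30658 to 54775 in IL-4, 31889 to 76876 in IL-13 and 45963 to 72117 in IL-31. Of its 11 genes 7 rose in IL-4, 9 in IL-13 and 8 in IL-31. Basal keratinocyte markers moved less, with 23280 to 29254 CPM in PBS and 25519 to 38795 in the cytokine groups (2, 1 and 1 of 7 rose in IL-4, in IL-13 and in IL-31). Sebaceous gland markers had 1, 0 and 0 of 9 called, and of 9 hair follicle markers 1, 1 and 0 rose and 3, 4 and 3 fell. Over all genes tested 8.22% were higher and 9.63% lower in IL-4, 9.94% and 9.8% in IL-13, and 5.18% and 1.2% in IL-31. Nothing is read from the basal and sebaceous counts, which are small. All 10 skeletal muscle markers fell in IL-4 and in IL-13, where their sums were 246 to 2416 and 593 to 2941 CPM against 4702 to 15306 in PBS, while in IL-31 (1304 to 5486 CPM) 0 of 10 passed the test. The comparisons of the members with PBS are therefore also given without PBS libraries 1, 2 and 3. These libraries were singled out by these same data. They hold the lowest PBS values of Alox12b, Aloxe3, Alox12 and Alox12e, so leaving them out was bound to lower the fold changes of these genes.

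Alox12b, Aloxe3, Alox12 and Alox12e rose in each of the 3 cytokine groups, and Alox8 and Alox5 did not pass the test in any. That made 4 of 6 members higher and 0 lower in IL-4, in IL-13 and in IL-31. Among all 16461 genes tested, 8.22% were higher and 9.63% lower in IL-4, 9.94% and 9.8% in IL-13, and 5.18% and 1.2% in IL-31. The members' median log2 fold change was 0.93, 0.86 and 0.99, beside -0.02, -0.03 and -0.04 over all genes. All 3 comparisons use the same PBS libraries, so they are not independent of each other. Levels in the groups overlapped in most cases: 0 of 6 members separated fully from PBS in IL-4 and in IL-13 (2.64% and 2.52% of all genes lay wholly above PBS), and 2 of 6, Alox12 and Alox12e, in IL-31 (2.93%). Adjusted p-values are limma's with Benjamini-Hochberg adjustment over all genes tested, two-sided, and a call is an adjusted p under 0.05. The fit pools the spread of the 4 groups, which was unequal. For the 4 members that rose, the SD in PBS exceeded that in every cytokine group. For Alox12b it was 1.47 in PBS, 0.51 in IL-4, 0.50 in IL-13 and 0.31 in IL-31. The SEs and p-values of their comparisons with PBS therefore draw on the tighter cytokine groups.

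**Figure D1:**
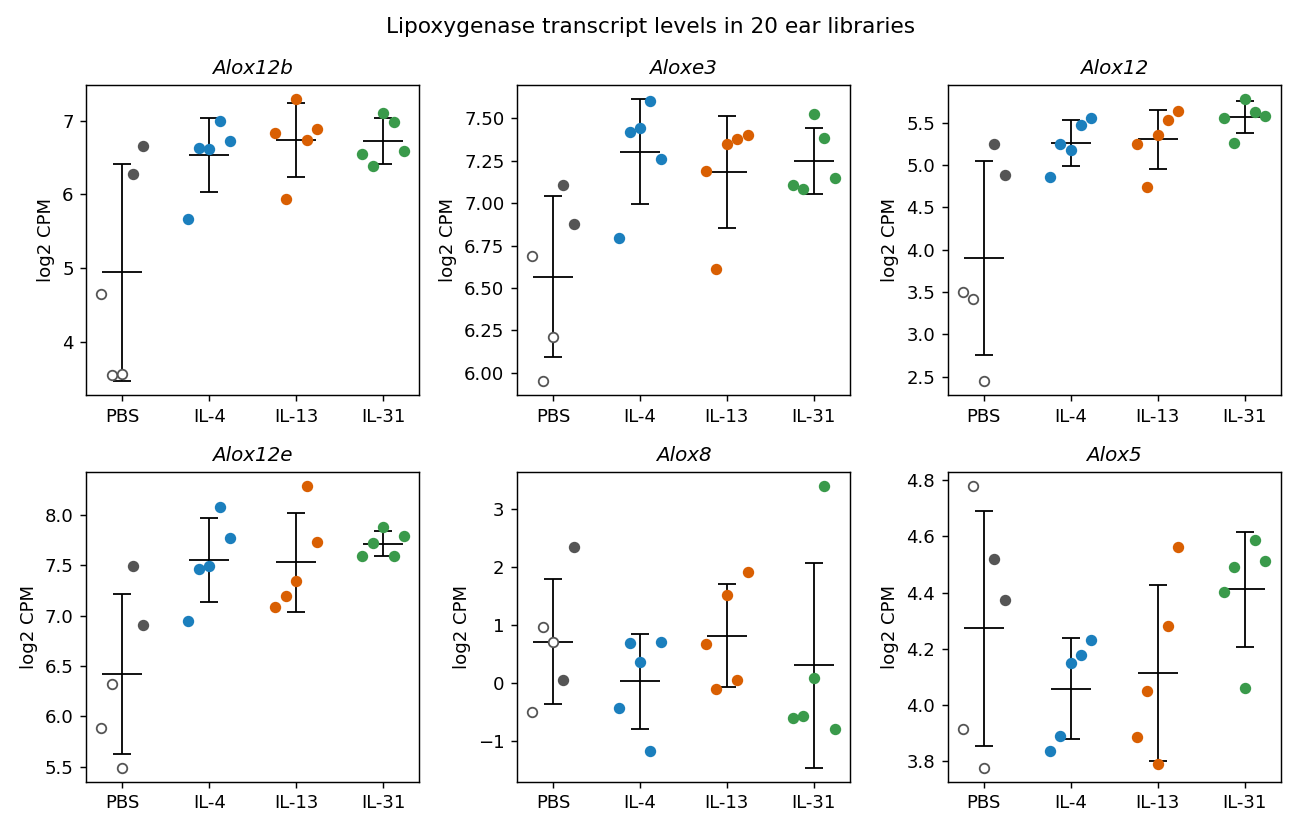
Level of each lipoxygenase in the 20 libraries, in log2 CPM, by group. Points are libraries (open for PBS libraries 1, 2 and 3), and bars are the mean and SD of 5; for Alox12b, Alox12 and Alox12e the 3 open points lie below all 15 cytokine libraries.

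Alox12b, the lipoxygenase that starts the oxidation of acylceramide, showed the widest range of the epidermal members. In PBS libraries 1 to 5 its level was 4.65, 3.55, 3.56, 6.27 and 6.66 log2 CPM. In IL-4 it was 5.67, 6.64, 6.62, 7.003 and 6.73, and in IL-13 it was 6.83, 5.93, 7.30, 6.74 and 6.89. In IL-31 it was 6.55, 6.38, 7.10, 6.99 and 6.59. PBS libraries 1, 2 and 3 lay below all 15 cytokine libraries, and PBS libraries 4 and 5 lay within the cytokine range. The log2 fold change was 1.59 ± 0.47 (SE, 3.02-fold, adjusted p = 0.025) in IL-4. It was 1.80 ± 0.47 (3.48-fold, adjusted p = 0.012) in IL-13 and 1.79 ± 0.47 (3.45-fold, adjusted p = 0.032) in IL-31. Without PBS libraries 1, 2 and 3 the 3 log2 fold changes were 0.06, 0.27 and 0.26, with adjusted p of 0.92, 0.70 and 0.85. Leaving out any single library of PBS 1, 2 or 3, or IL-4 library 4 or 5, ended the IL-4 call (adjusted p up to 0.080), and no single library ended the IL-13 call. The IL-31 call was lost without PBS library 1, 2 or 3, or IL-31 library 1, 3, 4 or 5 (adjusted p up to 0.099).

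Aloxe3, whose product converts the hydroperoxide that the Alox12b enzyme makes, moved less. Its level in PBS was 6.69, 5.95, 6.21, 7.10 and 6.88 log2 CPM. The IL-4 libraries gave 6.795, 7.42, 7.44, 7.60 and 7.26, and in IL-13 it was 7.19, 6.61, 7.35, 7.38 and 7.40. The IL-31 libraries gave 7.11, 7.08, 7.52, 7.38 and 7.15. In each cytokine group 4 of 5 libraries lay above the highest PBS library. The log2 fold change was 0.74 ± 0.20 (SE, adjusted p = 0.016) in IL-4, 0.62 ± 0.20 (0.035) in IL-13 and 0.68 ± 0.20 (0.046) in IL-31. These are the smallest changes among the 4 members that rose, from 1.54-fold to 1.67-fold. Without PBS libraries 1, 2 and 3 the values were 0.31, 0.20 and 0.26 (adjusted p = 0.37, 0.66 and 0.76). Leaving out PBS library 2 ended the IL-4 call (adjusted p = 0.051). The IL-13 call was lost without PBS library 2 or 3, or IL-13 library 1, 3, 4 or 5 (adjusted p up to 0.11). The IL-31 call was lost without any 1 of 14 libraries (adjusted p up to 0.14), the exceptions being PBS 4 and 5, IL-4 1 and 4, and IL-13 2 and 3.

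The balance between the transcripts of these consecutive enzymes differed among libraries. The log2 level of Alox12b minus that of Aloxe3, both per kb of exon, was -0.65, -1.01 and -1.26 in PBS libraries 1, 2 and 3. It was 0.57 and 1.18 in PBS libraries 4 and 5, and it ran from 0.27 to 1.35 with a median of 0.84 over the 15 cytokine libraries. Alox12b was thus the lower transcript per kb in 3 of 20 libraries, the same 3 that were low in suprabasal markers, and the higher in the other 17. Its sign rests on the annotated exon lengths, 6.397 kb for Aloxe3 and 2.431 kb for Alox12b. In log2 CPM without that scaling, Alox12b was the lower in every library. The difference per kb was described and not tested.

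Alox12 encodes an arachidonate lipoxygenase of platelets and keratinocytes. Its level in PBS was 3.50, 3.42, 2.45, 5.24 and 4.88 log2 CPM. IL-4 libraries stood at 4.86, 5.25, 5.18, 5.47 and 5.56, and in IL-13 it was 5.25, 4.74, 5.36, 5.53 and 5.64. The IL-31 libraries, at 5.56, 5.26, 5.78, 5.63 and 5.58, all lay above the highest PBS library, PBS 4 at 5.24. The log2 fold change was 1.36 ± 0.36 (SE, adjusted p = 0.013) in IL-4, 1.40 ± 0.36 (0.010) in IL-13 and 1.66 ± 0.36 (0.020) in IL-31. Without PBS libraries 1, 2 and 3 it was 0.20, 0.24 and 0.50 (adjusted p = 0.58, 0.58 and 0.65). No single library ended the IL-4 or IL-13 call. PBS library 1, 2 or 3, or IL-31 library 3 or 5, left out alone, ended the IL-31 call (adjusted p up to 0.068). Platelet markers did not pass the test in any group: 3 of the 8 on the list were tested, and the defining genes Gp5, Gp6, Gp9, Ppbp and Treml1 had no row. The summed platelet level was 49.2 to 98.7 CPM in PBS, 40.1 to 55.8 in IL-4, 41.8 to 82.1 in IL-13 and 53.0 to 65.3 in IL-31. The part of platelets in the level of Alox12 was not tested.

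Alox12e, the epidermis-type lipoxygenase, had the highest level of the family per kb. In PBS it stood at 5.89, 6.32, 5.49, 7.49 and 6.90 log2 CPM. With IL-4 the values were 6.94, 7.46, 7.49, 8.08 and 7.77, and in IL-13 it was 7.09, 7.19, 7.34, 8.29 and 7.73. The IL-31 libraries were the most alike, at 7.59, 7.72, 7.88, 7.59 and 7.79 (SD 0.13), and all exceeded PBS. The log2 fold change was 1.13 ± 0.30 (SE, adjusted p = 0.013) in IL-4, 1.11 ± 0.30 (0.013) in IL-13 and 1.30 ± 0.30 (0.022) in IL-31. Without PBS libraries 1, 2 and 3 it was 0.35, 0.33 and 0.52 (adjusted p = 0.46, 0.57 and 0.69). As for Alox12, the IL-4 and IL-13 calls outlasted the loss of any single library. The IL-31 call ended without PBS library 1, 2 or 3, or IL-31 library 3 or 5 (adjusted p up to 0.070).

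**Figure D2:**
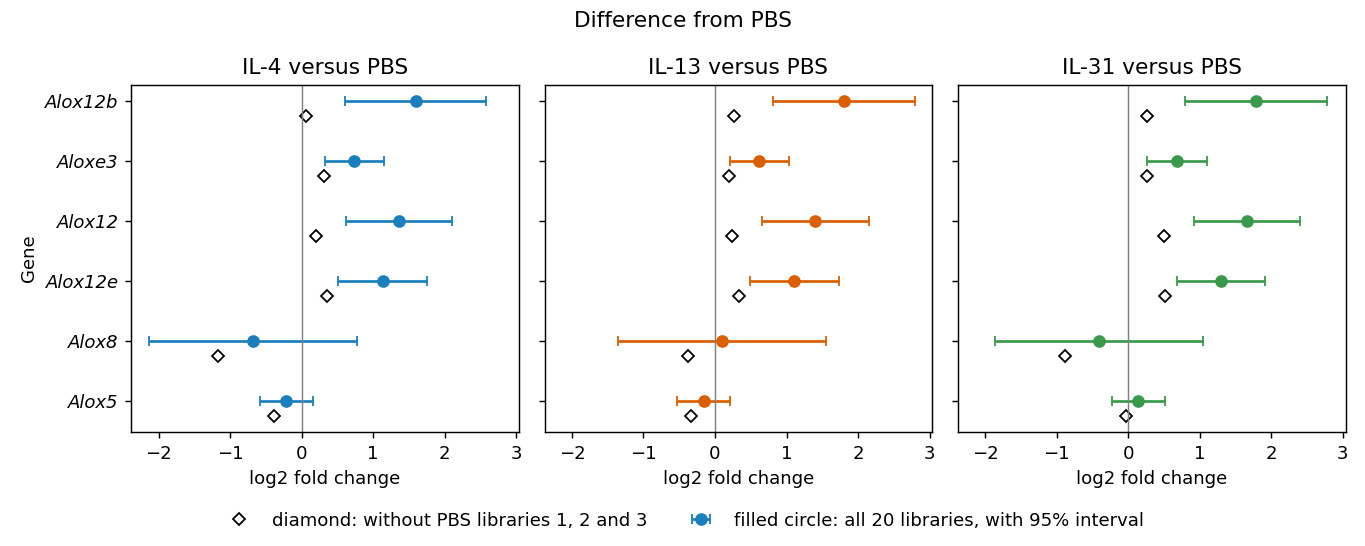
Log2 fold change of each lipoxygenase against PBS, with 1 panel per cytokine. Filled circles with bars are estimates with 95% intervals from all 20 libraries, and open diamonds are estimates without PBS libraries 1, 2 and 3; for Alox12b, Aloxe3, Alox12 and Alox12e the diamonds lie at 0.06 to 0.52.

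Without PBS libraries 1, 2 and 3, 0 of the 12 calls were left, with log2 fold changes of 0.06 to 0.52. In that fit 1204, 377 and 0 of 16183 genes were called in IL-4, in IL-13 and in IL-31, and the PBS group held 2 libraries. When each comparison was fitted on its own 10 libraries, the log2 fold changes were the same and 0 of the 12 calls were left (adjusted p = 0.058 to 0.15). Of all 16461 genes, those fits called 1269 in IL-4, 1134 in IL-13 and 0 in IL-31. With the suprabasal marker score as a covariate in the fit over 20 libraries, 0 of the 12 were left, and the log2 fold changes ran from -0.03 to 0.54. That fit called 1757, 7 and 0 of the 16461 genes, so in IL-13 and IL-31 nearly every call was lost, not those of the lipoxygenases alone. In that fit Alox12b was 0.12, -0.03 and 0.04 in IL-4, IL-13 and IL-31, against 0.49, 0.32 and 0.54 for Alox12e. The covariate moved with the groups and was chosen after the data were seen. The part of suprabasal transcript content in the low values of PBS libraries 1, 2 and 3 was not tested.

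Within the 15 cytokine libraries, where PBS plays no part, Alox12b followed the suprabasal score closely. Pearson's r was 0.944 (p = 1e-05, the smallest that 100000 permutations could give; 0.00012 adjusted over 12 relations) and Spearman's rho was 0.882 (adjusted p = 0.00036). It was 0.913 without the 2 libraries farthest from the median score. Aloxe3 gave r = 0.715 (adjusted permutation p = 0.018) and rho = 0.504 (0.17). Alox12 gave r = 0.676 (0.023) and rho = 0.589 (0.094), with r = 0.726 and 0.758 for these genes without the 2 farthest libraries. Alox12e, with r = 0.322 (0.39) and rho = 0.289 (0.40), passed neither test. Groups of 5 libraries are too small for a value within each group. Levels and scores were not centred on group means, and the permutations ran across all 15 libraries. Differences between groups are therefore part of these figures and p-values.

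The members also varied together, as a description. Over the 20 libraries Alox12b correlated with Alox12 at 0.95, with Aloxe3 at 0.92 and with Alox12e at 0.85 (Pearson, log2 CPM). Over the 15 cytokine libraries the values were 0.76, 0.85 and 0.48. Aloxe3 and Alox12b, which lie 7.87 kb apart, were the closest of these pairs among the cytokine libraries. Alox8, in the same cluster, correlated with Alox12b at 0.12 over all libraries. All these points share the library and its tissue make-up.

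**Figure D3:**
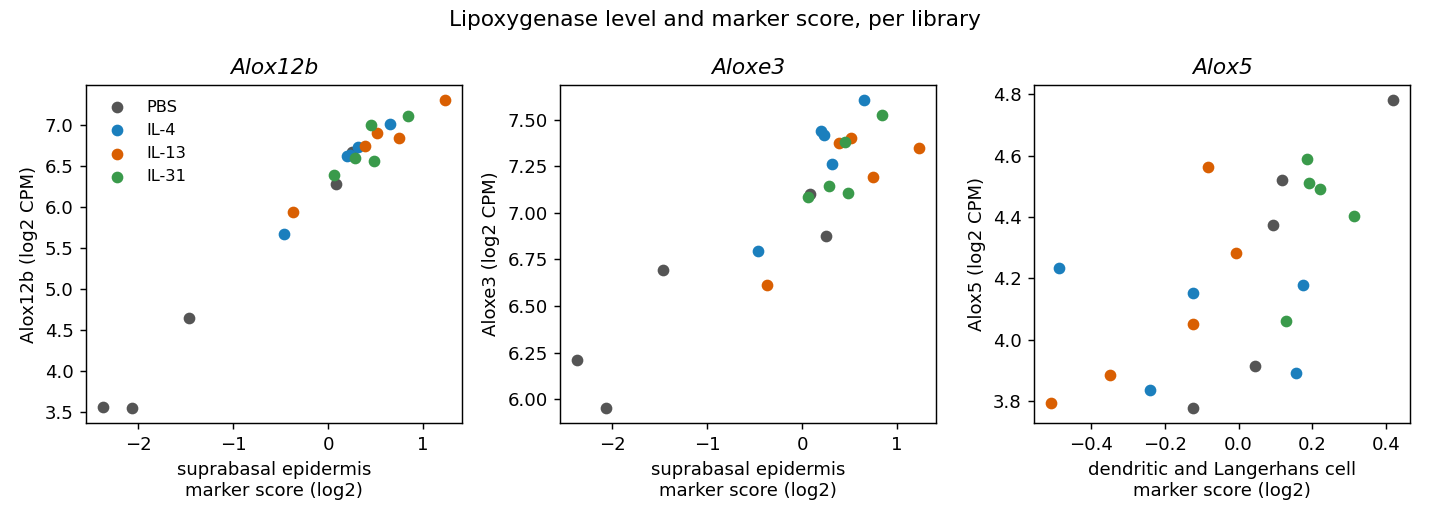
Level of Alox12b, Aloxe3 and Alox5 (log2 CPM) against marker scores per library, with points coloured by group. Alox12b rises with the suprabasal score over the whole range and 3 PBS libraries form the low end, while Alox5 is set against the dendritic and Langerhans cell score.

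The genes most like each member by Pearson correlation over the 20 libraries, among 14509 protein-coding genes, were named by rule. For Alox12b they were Sdr9c7 (0.995), Dmkn (0.995) and Lypd5 (0.993). Sdr9c7 encodes the dehydrogenase that acts on the product of the Aloxe3 enzyme, and Dmkn encodes dermokine, a secreted protein of the outer epidermis. For Alox12 they were Slurp1 (0.988), Flg2 (0.986), which encodes a filaggrin-like protein of the cornified layer, and Serpina12 (0.985). For Aloxe3 they were Card14 (0.960), Pdlim2 (0.957) and 2010109I03Rik (0.957), and for Alox12e they were Bbox1 (0.968), Otud1 (0.961) and Cgn (0.957). The same pairs gave 0.82 to 0.97 over the 15 cytokine libraries. The low PBS libraries set much of the range for all of these genes.

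Among 20 other genes of acylceramide synthesis and the corneocyte lipid envelope, 10 rose in IL-4, 16 in IL-13 and 7 in IL-31, and 0 fell. Over all genes 8.22% were higher and 9.63% lower in IL-4, 9.94% and 9.8% in IL-13, and 5.18% and 1.2% in IL-31. The list's median log2 fold change was 0.65, 0.74 and 0.70, beside -0.02, -0.03 and -0.04 over all genes. All 20 had positive values in each comparison. Sptlc3, a subunit of serine palmitoyltransferase, which starts ceramide synthesis, was among the 4 of smallest p in all 3 groups, at 0.96 ± 0.21 (SE, adjusted p = 0.0045) in IL-4, 1.01 ± 0.21 (0.0032) in IL-13 and 0.87 ± 0.21 (0.024) in IL-31. In IL-4 the others were Elovl4 (0.81 ± 0.17, adjusted p = 0.0042), the elongase for very long fatty acids, Acer1 (0.64 ± 0.15, 0.0061), an alkaline ceramidase, and Cyp4f39 (0.66 ± 0.17, 0.012), the omega-hydroxylase of these fatty acids. In IL-13 they were Cyp4f39 (0.76 ± 0.17, 0.0053), Elovl4 (0.70 ± 0.17, 0.0084) and Abhd5 (0.71 ± 0.18, 0.010), a cofactor of acylceramide synthesis. In IL-31 they were Smpd1 (0.75 ± 0.17, 0.022), the acid sphingomyelinase, Abhd5 (0.73 ± 0.18, 0.027) and Sdr9c7 (2.01 ± 0.53, 0.032). The IL-4 and IL-13 calls named here held without any single library. Those of IL-31 were lost without PBS library 1, 2 or 3 or IL-31 library 3 or 5 (adjusted p up to 0.099), that of Abhd5 also without IL-31 library 4, and that of Sdr9c7 also without IL-31 library 1 or 4.

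A few of these genes passed without PBS libraries 1, 2 and 3, where no lipoxygenase did. In that fit, which called 1204, 377 and 0 of all 16183 genes, the counts became 3, 3 and 0 of 20. The list's medians were 0.04, 0.22 and 0.21. The 3 were Acer1 (0.67 in IL-4, adjusted p = 0.0088; 0.59 in IL-13, 0.029), Elovl4 (0.68, 0.013; 0.58, 0.038) and Slc27a4 (1.07, 0.013; 0.87, 0.038), a fatty acid transport protein that passed in neither group with all 20 libraries. Slc27a4 and the set of 3 were named after their values were seen. With the suprabasal covariate the counts were 3, 0 and 0, in a fit that called 1757, 7 and 0 of all 16461 genes. Leaving out 1 library at a time gave 4 to 16 calls in IL-4, 9 to 18 in IL-13 and 0 to 16 in IL-31. The IL-31 count was 0 without PBS library 1, 2 or 3 or IL-31 library 3 or 5, and it was 3 or 2 without IL-31 library 1 or 4 and 12 or 16 without PBS library 4 or 5. The IL-4 count was 4 without PBS library 1 or 2 or IL-4 library 4 or 5, and 5 without PBS library 3 or IL-4 library 2 or 3, and 16 without PBS library 5. The IL-13 count was 9 without PBS library 2 or IL-13 library 3.

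**Figure D4:**
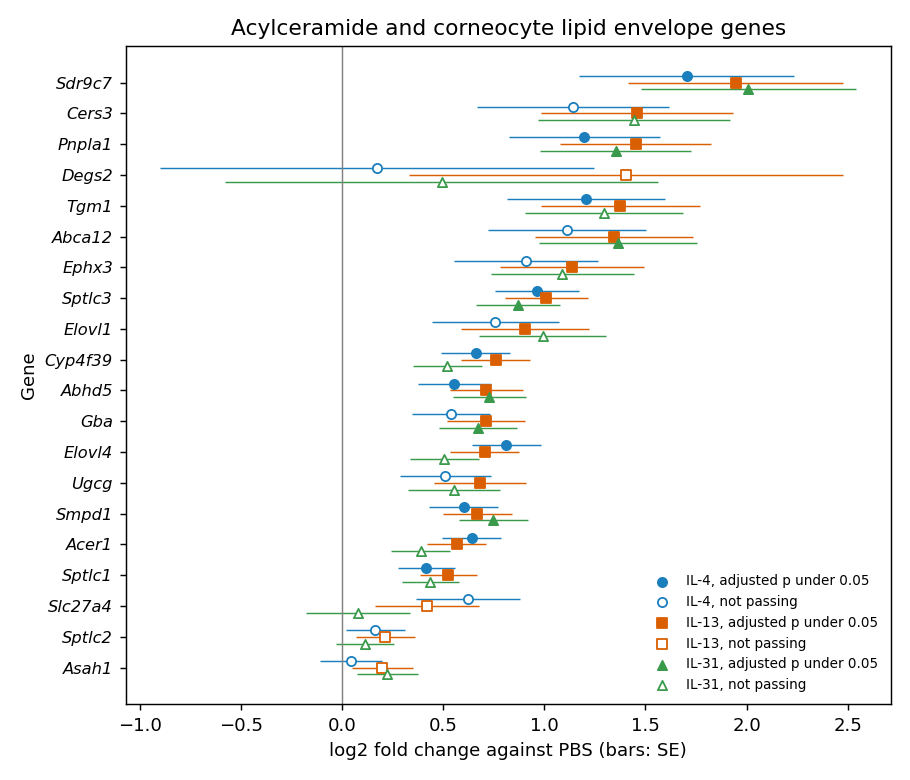
Log2 fold change against PBS, with SE bars, of 20 acylceramide and corneocyte lipid envelope genes in IL-4 (circles), IL-13 (squares) and IL-31 (triangles). Filled symbols passed the test (10, 16 and 7 genes), and all 60 values lie at or above 0.

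Alox8 was the least abundant member and the most scattered. Its level in PBS was -0.51, 0.96, 0.70, 0.05 and 2.33 log2 CPM. In IL-4 it was -0.44, 0.68, 0.35, -1.18 and 0.70, and in IL-13 it was 0.67, -0.10, 1.51, 0.04 and 1.91. IL-31 libraries gave -0.62, -0.57, 0.09, 3.40 and -0.80. IL-31 library 4, the deepest, held 246 reads of Alox8, more than any other library. No group stood apart from PBS: the log2 fold change was -0.68 ± 0.70 (SE, adjusted p = 0.54) in IL-4, 0.10 ± 0.70 (0.94) in IL-13 and -0.41 ± 0.70 (0.74) in IL-31. The 95% intervals, -2.14 to 0.77, -1.35 to 1.55 and -1.86 to 1.04, are the widest of the members. They leave room, in each group, for a fall and for a rise of the size of Aloxe3. In IL-13 they also leave room for rises of the size of Alox12 and Alox12e. Leaving out PBS libraries 1, 2 and 3 gave log2 fold changes of -1.17, -0.38 and -0.89 (adjusted p = 0.47, 0.88 and 0.82), so the value in IL-13 changed sign. For Alox8, PBS library 1 was the lowest of the PBS group (-0.51). PBS libraries 2 and 3 (0.96 and 0.70) lay above PBS library 4 (0.05). The mean of PBS libraries 1, 2 and 3 was 0.81 log2 below that of the other PBS libraries. The highest PBS library stood at 2.33. The genes most like Alox8 were E2f7 (0.81), Mrps27 (0.78) and Tbl3 (0.76), lower values than for any other member.

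Alox5, the leukotriene-forming member, kept to a narrow range. Its level in PBS was 3.91, 4.78, 3.78, 4.52 and 4.37 log2 CPM. The IL-4 values were 3.84, 3.89, 4.15, 4.18 and 4.23, and in IL-13 it was 3.89, 4.05, 3.79, 4.28 and 4.56. In IL-31 it was 4.40, 4.49, 4.06, 4.59 and 4.51. The PBS libraries held both the lowest and the highest of the 20 values. The log2 fold change was -0.21 ± 0.18 (SE, 95% interval -0.59 to 0.16, adjusted p = 0.44) in IL-4. It was -0.16 ± 0.18 (-0.53 to 0.21, 0.57) in IL-13 and 0.14 ± 0.18 (-0.23 to 0.51, 0.65) in IL-31. With PBS libraries 1, 2 and 3 left out it was -0.39, -0.33 and -0.03 (adjusted p = 0.21, 0.35 and 0.97), the last with the opposite sign. The intervals from all libraries leave out rises of the size seen for Alox12b, Alox12 and Alox12e.

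The genes most like Alox5 were of another kind. They were H2-Aa (0.910), Cd74 (0.907) and H2-Eb1 (0.895), which encode MHC class II chains and their chaperone in antigen-presenting cells. Over the 15 cytokine libraries these correlations were 0.865, 0.905 and 0.870. Against a score of 8 dendritic and Langerhans cell markers, which includes Cd74, Alox5 gave r = 0.563 (adjusted permutation p = 0.092) and rho = 0.661 (0.052) over those 15, and r = 0.569 without the 2 farthest libraries. Of these markers 0 of 7 tested passed in IL-4, 1 fell in IL-13 and 0 passed in IL-31, and their summed level was 367 to 812 CPM in PBS, 464 to 549 in IL-4, 423 to 571 in IL-13 and 514 to 666 in IL-31. Macrophage markers fell in IL-4 (7 of 11) and in IL-13 (5 of 11) and 0 of 11 passed in IL-31, with sums of 329 to 1170 CPM in PBS, 254 to 376 in IL-4, 270 to 461 in IL-13 and 328 to 674 in IL-31. Over all genes 9.63% were lower in IL-4, 9.8% in IL-13 and 1.2% in IL-31. The neutrophil (8 tested), mast cell (9 tested) and eosinophil (1 tested) markers had 0 called in any group. Neutrophil sums varied widely, from 72.0 to 920 CPM in PBS, 64.0 to 293 in IL-4, 69.0 to 536 in IL-13 and 84.9 to 436 in IL-31. The median log2 fold change of the neutrophil list was -1.90, -1.42 and -1.20, so the missing calls do not show equal neutrophil content.

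Alox5ap, which encodes the FLAP protein that Alox5 needs, fell in IL-4 and in IL-13. Its level in PBS was 5.32, 5.19, 5.31, 5.03 and 6.24 log2 CPM, and in IL-4 it was 4.26, 4.36, 4.53, 4.81 and 4.36, so the groups did not overlap. In IL-13 it was 5.42, 4.34, 4.32, 4.50 and 4.61, and in IL-31 it was 5.30, 4.82, 5.25, 4.50 and 4.98. IL-13 library 1 was the exception in its group, inside the PBS range. The log2 fold change was -0.95 ± 0.22 (SE, adjusted p = 0.0074) in IL-4, -0.78 ± 0.22 (0.019) in IL-13 and -0.45 ± 0.22 (0.23) in IL-31. The IL-4 call was kept without any single library (adjusted p up to 0.020) and without PBS libraries 1, 2 and 3 (-1.17, adjusted p = 0.033). The IL-13 call was lost without IL-13 library 3 (adjusted p = 0.059) and without the 3 PBS libraries (-0.9993, 0.077). It was also lost with only the 2 groups compared (adjusted p = 0.083), with library weights (0.054) and with the suprabasal covariate (0.074), while the IL-4 call held under each of these. Macrophage markers fell in the same groups, and their part in the fall of Alox5ap was not tested, nor was that of neutrophil content.

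Of the 10 leukotriene and lipoxin genes tested (of 12 listed), 2 rose and 1 fell in IL-4, 1 rose and 1 fell in IL-13, and 1 rose in IL-31. Over all genes 8.22% were higher and 9.63% lower in IL-4, 9.94% and 9.8% in IL-13, and 5.18% and 1.2% in IL-31, so for 10 genes the counts are near the background. Their median log2 fold changes were -0.19, -0.19 and -0.17. Ltb4r2, a low-affinity leukotriene B receptor found on keratinocytes, rose in IL-4 (0.47 ± 0.14, adjusted p = 0.023) and in IL-31 (0.50 ± 0.14, 0.038), and in IL-13 it was 0.39 ± 0.14 (0.053). Pla2g4a, the phospholipase that releases arachidonate, rose in IL-4 (0.71 ± 0.24, 0.045) and in IL-13 (0.74 ± 0.24, 0.035), and in IL-31 it was 0.76 ± 0.24 (0.060). Without PBS libraries 1, 2 and 3 neither receptor nor phospholipase was called, with log2 fold changes of -0.02 to 0.10. Leaving out 1 of PBS libraries 1, 2 and 3 was also enough to end each of these 4 calls, as was IL-4 library 5 for Ltb4r2 in IL-4, any IL-31 library for Ltb4r2 in IL-31, and IL-13 library 1, 3, 4 or 5 for Pla2g4a in IL-13 (adjusted p up to 0.11). The IL-4 call of Pla2g4a was lost without any 1 of 14 libraries (adjusted p up to 0.12), the exceptions being PBS 4 and 5, IL-4 1, IL-13 2 and 4, and IL-31 3. Fpr2, the lipoxin receptor, was at -2.82 ± 1.21 (0.11) in IL-4 and -2.55 ± 1.21 (0.14) in IL-13, and Gpx4, a peroxidase that reduces lipid hydroperoxides, was at -0.34 ± 0.17 (0.24) in IL-31.

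The parallel route from arachidonate, the cyclooxygenases and prostanoids, had 11 of 12 listed genes tested. In IL-4 and in IL-13 1 rose and 1 fell, and in IL-31 0 passed, with medians of -0.32, -0.27 and -0.16. These counts are near the share over all genes (8.22% higher and 9.63% lower in IL-4, 9.94% and 9.8% in IL-13), so nothing is read from them about the list. Ptgir, the prostacyclin receptor, fell in IL-4 (-0.74 ± 0.23, adjusted p = 0.034) and in IL-13 (-0.80 ± 0.23, 0.021), and did so without PBS libraries 1, 2 and 3 as well (-1.01, 0.033 and -1.08, 0.045). Both falls were lost under quantile normalization. The IL-4 fall was lost without PBS library 2 or 5 or IL-4 library 1, 2, 4 or 5 (adjusted p up to 0.10), and the IL-13 fall without PBS library 2 or IL-13 library 3 or 4 (up to 0.070). Ptger4, a prostaglandin E receptor, rose in IL-4 (0.56 ± 0.18, 0.039) and Ptgs1, the constitutive cyclooxygenase, rose in IL-13 (0.71 ± 0.24, 0.044). Neither was called without PBS libraries 1, 2 and 3 (0.63, 0.13 and 0.09, 0.88). The Ptger4 call was lost without PBS library 2, 3 or 4 or IL-4 library 1, 3 or 5 (adjusted p up to 0.093). That of Ptgs1 was lost without PBS library 1, 2 or 3, IL-4 library 3 or 5, IL-13 library 1, 3, 4 or 5, or IL-31 library 1 or 5 (up to 0.13). With only the 2 groups compared, and with the suprabasal covariate, all 4 of these prostanoid calls and the 4 calls of Ltb4r2 and Pla2g4a were lost. Also among the 4 prostanoid genes of smallest p, without passing, were Tbxas1 (-1.21 ± 0.43, SE, adjusted p = 0.059) and Ptger3 (-0.86 ± 0.33, 0.072) in IL-4. For IL-13 they were Ptger3 (-0.69 ± 0.33, 0.14) and Ptger4 (0.36 ± 0.18, 0.17). For IL-31 they were Ptgs1 (0.78 ± 0.24, 0.058), Ptges (0.68 ± 0.35, 0.25), Hpgds (-0.37 ± 0.20, 0.25) and Ptgir (-0.43 ± 0.23, 0.27).

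None of the 4 genes flanking the chromosome 11 clusters rose with the members, and 1 of them, Cntrob, fell in IL-31. Rnasek, 1.61 kb from Alox12, had log2 fold changes of -0.02, 0.05 and 0.05 in the order IL-4, IL-13, IL-31 (SE 0.08, adjusted p = 0.89, 0.68 and 0.72). On the other side, 40.9 kb from Alox15, Pelp1 was at -0.18, -0.03 and -0.07 (adjusted p = 0.45, 0.90 and 0.80). Per1, 15.9 kb from Aloxe3, was at -0.38, -0.34 and -0.22 (0.11, 0.15 and 0.42), and Cntrob, 102 kb from Alox8, was at -0.37, -0.34 and -0.50 (0.066, 0.082 and 0.034). Next to Alox5, March8 rose in IL-13 (0.33, 0.033) and IL-31 (0.41, 0.030) and was at 0.26 (0.092) in IL-4, while Zfp422 was at 0.10, -0.07 and -0.04 (0.63, 0.73 and 0.87).

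Set against each other, the cytokines gave no lipoxygenase a call. In IL-4 against IL-13, IL-4 against IL-31 and IL-13 against IL-31, 0 of 6 members passed limma's test and 0 of 6 had an unadjusted p under 0.05. The background was 0% in each pair, with 664, 1743 and 1200 of 16461 genes at an unadjusted p under 0.05. Over the 3 pairs the 95% intervals of the log2 difference lay within -0.48 and 0.53 for Aloxe3 and within -0.80 and 0.64 for Alox12e. They lay within -1.04 and 0.70 for Alox12, within -1.20 and 1.00 for Alox12b and within -0.72 and 0.32 for Alox5. For Alox8 they reached from -2.23 to 1.96. The largest difference among the 4 epidermal members was Alox12 in IL-4 minus IL-31, at -0.30 ± 0.36 (SE, adjusted p = 0.81). The lowest unadjusted p was for Alox5, whose level in IL-4 (4.06 ± 0.18, SD, n = 5) lay below that in IL-31 (4.41 ± 0.21) by 0.35 ± 0.18 (SE; adjusted p = 0.50). These p-values, SEs and intervals come from the fit over all 20 libraries, so the spread of the PBS libraries enters them. Without PBS libraries 1, 2 and 3 the differences were the same, with an SE of 0.24 rather than 0.47 for Alox12b. It was 0.16 rather than 0.36 for Alox12, 0.14 rather than 0.18 for Alox5 and 0.72 rather than 0.70 for Alox8. The lowest adjusted p (limma) was then 0.24, for Alox5 in IL-4 against IL-31. A missing call does not show that the cytokines act alike, and the intervals give what the fit over 20 libraries leaves room for.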

How the data were processed

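RNA-seq was measured in 20 ear pinna libraries, 5 per group, with groups and numbers taken from the sample titles. The authors deposited log2 CPM values per Ensembl gene. The build GRCm38 and the tool edgeR are named in the submitters' processing notes, while the sources used here do not state the aligner, the counter, strandedness or how reads shared between paralogs were counted. The lowest value, -2.684, equals an offset of 0.1556 CPM, so fold changes of low genes are understated. Library steps gave effective sizes, but 79.3 to 86.8% of low values were whole reads within 0.02, so no count test was run.

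Symbols and exon lengths came from GENCODE M21 (16644 of 16669 identifiers matched). One limma model (version 3.58.1, R 4.3.3, eBayes with trend) was fitted over all 4 groups to 16461 genes with log2 CPM of at least 0 in 5 libraries (208 removed), and was tested on simulated data. Scores, correlations, permutations and motif searches used pandas 2.3.3, numpy 2.4.6 and scipy 1.17.1 under python 3.11.15, and figures used matplotlib 3.10.9. Named genes are the members, the 3 genes most correlated with each, the 4 list genes of smallest p per comparison and the nearest tested neighbours. Members and lists were chosen with earlier results of these data known. Alternatives were other filters, offset, normalization, prior, samples, weights, a replicate block and libraries left out.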

Additional observations from a re-analysis of the deposited data

Results flagged for a closer look

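In 24 sets of 5 libraries (6 genes in 4 groups), 3 held a library whose gap to its nearest neighbour exceeded 0.71 of the set's range, the limit for a sample far from the others. Chance marks about 1 in 20 such sets. Alox8 in IL-31 library 4 stood at 3.40 log2 CPM, with the next library at 0.09 (gap 0.788 of the range). Alox12b in IL-4 library 1 was low at 5.67, with the next at 6.62 (0.714). Aloxe3 in IL-13 library 2 was low at 6.61, with the next at 7.19 (0.734). The suprabasal score was lowest of its group in the last 2 libraries, at -0.47 and -0.37.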

How the results depend on the processing

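The 12 calls (Alox12b, Aloxe3, Alox12 and Alox12e in 3 comparisons with PBS) were kept with no low-value filter, a stricter filter, an offset of 1 CPM, quantile normalization and library weights. Without the variance trend 11 were kept, Aloxe3 in IL-31 being lost (adjusted p = 0.065). The number called was 0 in all 3 comparisons when only the 2 groups were fitted, without PBS libraries 1, 2 and 3, and with the suprabasal score as covariate, an alternative chosen after seeing the data. PBS libraries 1, 2 and 3 were likewise singled out by their marker values in these data. With that covariate Alox12b and Aloxe3 in IL-13 changed sign, to -0.026 and -0.028. Leaving out 1 library gave 2 to 4 calls in IL-4, 3 to 4 in IL-13 and 0 to 4 in IL-31, and 0 between cytokines. The corneocyte lipid envelope counts, in the order IL-4, IL-13, IL-31, were 4, 2 and 0 with only the 2 groups, 3, 3 and 0 without the 3 PBS libraries and 3, 0 and 0 with the covariate. Library weights gave 16 in IL-4 and 15 in IL-31, no variance trend gave 4 in IL-31, and leaving out 1 library gave 4 to 16, 9 to 18 and 0 to 16. The cause of these shifts was not tested.

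The labels number the libraries in each group and name no animal shared by those of the same number. Correlations between same-numbered libraries, taken on deviations from group means, ran from -0.24 to 0.49. Their median was 0.038, against 0.019 for different numbers. Of the 30 pairs 10 exceeded 0.1, and 3 of 20 libraries matched their own number best. The replicate block gave 4 calls in each comparison with PBS and 0 between cytokines, and 13 corneocyte lipid envelope genes in IL-31. Alox8, with 4.00 to 246 reads, had the widest intervals of the members.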
